A study of Mus musculus with 2 samples.

Results

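The genes that encode the RUNX transcription factors (Runx1, Runx2 and Runx3), their partner Cbfb, and Sp7, which acts with Runx2 in bone, were examined in an LHX6 ChIP-seq experiment on mouse maxillary arch, the embryonic tissue of the upper jaw and palate. An LHX6 interval (a region enriched in sequenced fragments) was taken for a gene when the authors' table listed the gene's symbol for it, when its summit lay inside the gene, or when its summit lay within 100 kb of the gene start in mouse build NCBIM37 (mm9). This gave 12 of the 6566 LHX6 intervals, and all 5 genes had at least 1: Runx2 had 5, Runx3 had 3, Sp7 had 2, and Runx1 and Cbfb had 1 each. By the same rule 45.1% of all gene names and 48.8% of protein-coding genes had an interval, so that having 1 is common. By the authors' gene list alone 10 of the 12 intervals belonged to these genes. Counted by gene, every member but Runx1 then had at least 1, where 14% of all gene names and 20.7% of protein-coding genes did.

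The study comprised 1 LHX6 ChIP library and 1 input library (chromatin taken without antibody), both from wild-type CD-1 embryos at E11.5. The maxillary arches of 47 embryos were pooled, and 20 µg of chromatin was precipitated with a rabbit polyclonal antibody to LHX6, a LIM homeodomain factor of the arch mesenchyme. A pool mixes mesenchyme with every other cell type of the arch, and neither library was replicated, so no value has a replicate error and nothing was tested between libraries. Height is the authors' value for the peak density of 150 bp fragments in an interval, and mean density is their average over its 32 bp bins. The depth is unknown, since no source here states how many reads each library had. Over all LHX6 intervals the median height was 22 (quartiles 18 and 28, range 10 to 297).

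RUNX proteins bind DNA through the Runt domain, and CBFB, which does not bind DNA itself, joins that domain and strengthens its hold on DNA. In mammals RUNX1 is required for blood stem cells, RUNX2 for osteoblasts, the bone-forming cells, and RUNX3 for a class of sensory neurons and for T cells. SP7, also called osterix, is a zinc finger factor needed for osteoblasts to mature after RUNX2 has acted. Each of the Runx genes is transcribed from a distal and a proximal promoter, which give proteins that differ at the N-terminus. The mesenchyme of the maxillary arch later forms bones of the upper jaw and palate, in which Runx2 and Sp7 are known to act.

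The sequences below are the 201 bases centred on the summits that the results turn on, on the plus strand of NCBIM37. They comprise the highest Runx2 interval, the Runx2 interval just before the proximal promoter, the Runx1 and Runx3 intervals, the Cbfb start, and for contrast the highest interval of the neighbouring gene Supt3h. Capitals mark the homeodomain-type hexamers TGATTG, its variant TGATTA and the LIM homeodomain core TAATTA, together with TGTGGT, the core bound by RUNX proteins. Each motif was searched on both strands, and where the minus strand holds it the reverse complement is what is capitalised.
Runx2, 196 kb from the start (chr17:44755292-44755492): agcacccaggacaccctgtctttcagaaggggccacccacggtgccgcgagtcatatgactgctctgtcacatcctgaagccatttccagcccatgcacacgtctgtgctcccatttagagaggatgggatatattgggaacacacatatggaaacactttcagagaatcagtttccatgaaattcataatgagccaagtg
Runx2, 77.4 kb from the start (chr17:44874252-44874452): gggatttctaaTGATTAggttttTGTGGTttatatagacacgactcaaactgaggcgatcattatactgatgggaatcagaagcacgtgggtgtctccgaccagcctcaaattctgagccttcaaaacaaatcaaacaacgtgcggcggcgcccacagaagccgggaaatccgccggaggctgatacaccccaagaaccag
Runx1, 72.1 kb from the start (chr16:92754140-92754340): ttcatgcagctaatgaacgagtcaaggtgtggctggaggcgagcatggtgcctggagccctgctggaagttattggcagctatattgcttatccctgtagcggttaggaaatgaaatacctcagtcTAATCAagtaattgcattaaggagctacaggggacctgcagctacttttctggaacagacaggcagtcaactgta
Runx3, 34.0 kb from the start (chr4:134710428-134710628): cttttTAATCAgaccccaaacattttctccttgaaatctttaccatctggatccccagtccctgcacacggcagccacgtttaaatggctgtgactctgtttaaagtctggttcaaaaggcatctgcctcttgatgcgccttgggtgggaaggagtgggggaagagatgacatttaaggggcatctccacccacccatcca
Runx3, 35.9 kb from the start (chr4:134712412-134712612): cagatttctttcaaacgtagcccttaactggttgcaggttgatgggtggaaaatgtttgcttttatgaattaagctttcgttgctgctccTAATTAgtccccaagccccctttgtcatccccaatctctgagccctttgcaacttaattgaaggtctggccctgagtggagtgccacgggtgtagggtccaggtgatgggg
Runx3, 45.8 kb from the start (chr4:134722268-134722468): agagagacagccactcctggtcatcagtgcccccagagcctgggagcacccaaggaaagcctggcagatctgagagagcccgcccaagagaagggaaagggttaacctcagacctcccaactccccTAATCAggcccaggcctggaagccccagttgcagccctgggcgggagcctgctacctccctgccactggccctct
Cbfb start (chr8:107694396-107694596): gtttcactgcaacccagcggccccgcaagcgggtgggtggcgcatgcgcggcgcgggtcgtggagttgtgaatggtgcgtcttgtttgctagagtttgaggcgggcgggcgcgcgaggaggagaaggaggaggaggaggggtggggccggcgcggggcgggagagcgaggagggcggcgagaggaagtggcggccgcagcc
Supt3h, highest interval (chr17:45141820-45142020): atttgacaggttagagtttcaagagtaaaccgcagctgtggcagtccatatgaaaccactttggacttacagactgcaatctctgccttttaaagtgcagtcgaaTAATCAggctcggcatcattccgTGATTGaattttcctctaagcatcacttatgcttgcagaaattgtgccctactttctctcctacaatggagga

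Runx2 (ENSMUSG00000039153, chromosome 17, 44632936 to 44951746, minus strand) had 5 intervals, all with the summit inside the gene, and among them the highest of the 12. That interval had a height of 53 and a mean density of 18.1 and lay in an intron, 196 kb downstream of the gene start (44754869 to 44756003). It ranked 246 by height among all LHX6 intervals, 96.1% of which were lower, and it overlapped no CpG island. The next interval towards the start, also intronic and 132 kb from it (44819815 to 44820481), had a height of 14, and 2.22% of intervals were lower. The 5 Runx2 intervals thus held both the highest and the lowest height of the 12.

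A pair of Runx2 intervals lay at the proximal promoter. The first (44871728 to 44873565) had a height of 24, was the longest of the 12 at 1837 bp and overlapped a CpG island. Its summit lay in a coding exon, 91 bp downstream of the nearest annotated Runx2 transcript start, and 4 of the 18 annotated Runx2 transcripts began inside it. The second (44873995 to 44874817) had a height of 19 and began 430 bp from the end of the first. Its summit lay 755 bp upstream of the most upstream start of the proximal promoter, in an intron of the longer transcripts, and in an exon of Gm10497, an antisense transcript. The first interval thus covered proximal starts, whereas none of the 5 covered the distal start.

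The remaining Runx2 interval lay in the long first part of the gene, 37.7 kb from the start (44913571 to 44914927), with a height of 24 and a CpG island. Its summit was 85 bp from the start of Supt3h, which encodes a subunit of a chromatin-modifying complex and is transcribed in the opposite direction from within Runx2. The authors' table lists this interval for both genes. Which gene the interval belongs to cannot be told apart from its position.

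**Figure D1:**
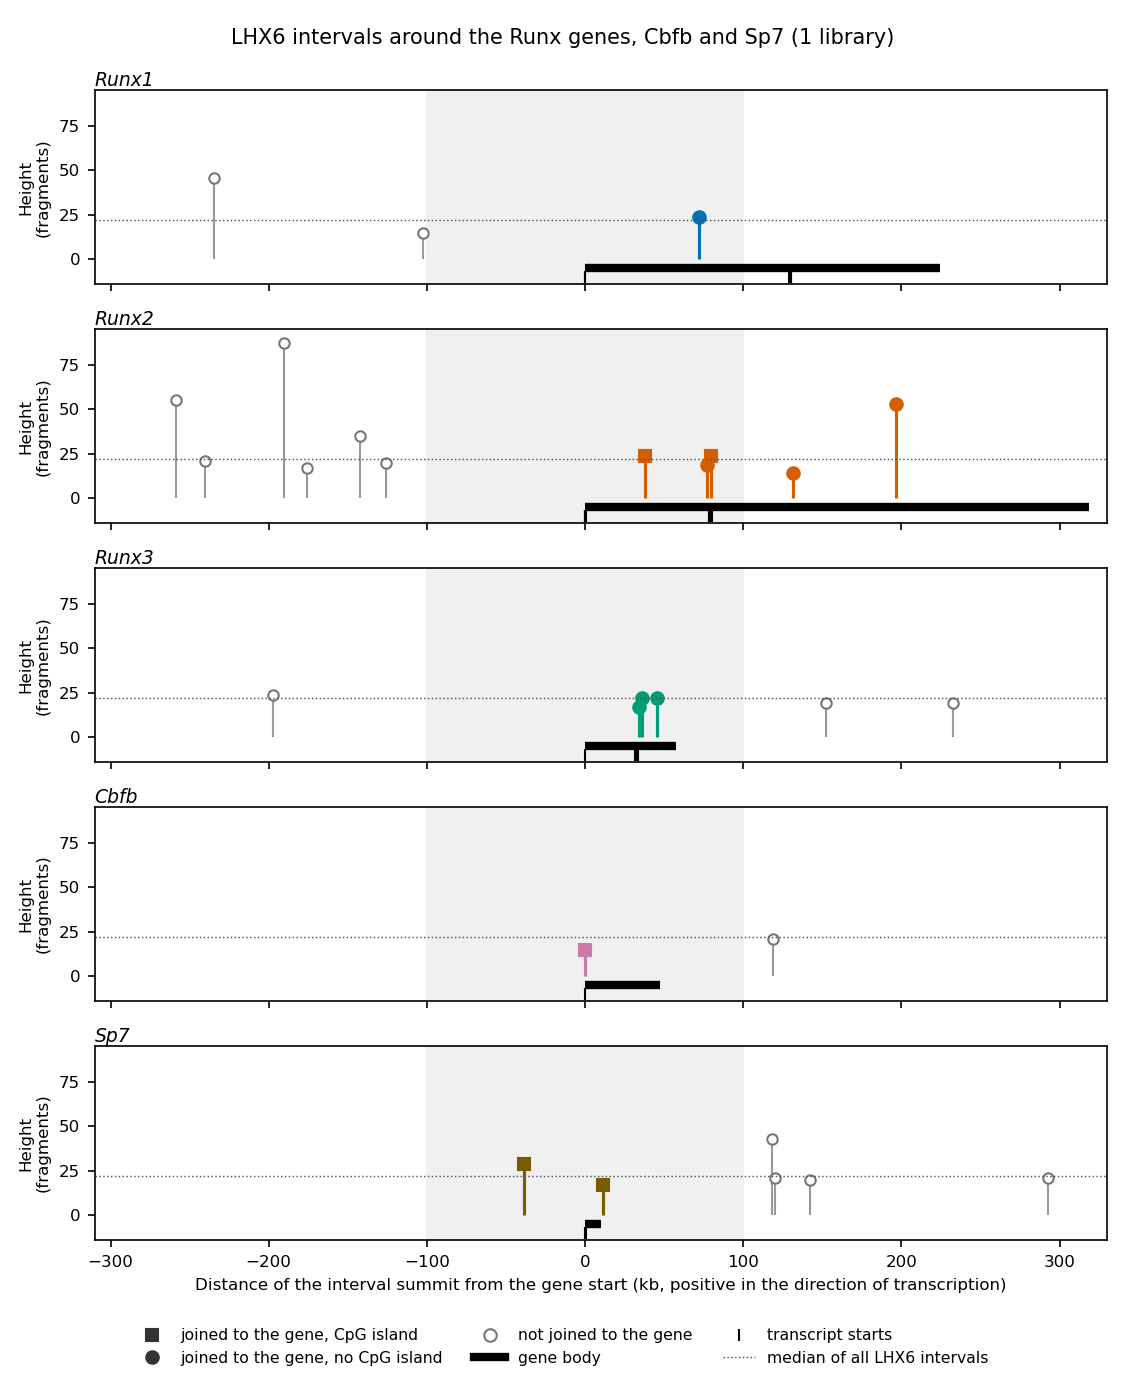
Height of each LHX6 interval (vertical axis, highest fragment density) against the distance of its summit from the gene start in kb, for Runx1, Runx2, Runx3, Cbfb and Sp7 in 1 library. Grey shading marks 100 kb to each side of the start, filled points are intervals joined to the gene and open points are others within 300 kb; the Runx2 interval of height 53 lies 196 kb into the gene, and the open point of height 87 lies 190 kb upstream, in Supt3h.

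Runx3 (ENSMUSG00000070691, chromosome 4, 134676567 to 134733905, plus strand) had 3 intervals inside the gene, with summits spread over 11.8 kb, with heights of 17, 22 and 22. The first (134710123 to 134711543, mean density 9.27) had its summit 177 bp downstream of the start of a short Runx3 transcript, in an exon without coding sequence, and 2.12 kb from the nearest start of a protein-coding transcript. The second (134712132 to 134712800, mean density 9.38) began 589 bp further on, in an intron, 35.9 kb from the gene start. The third (134722074 to 134722849, mean density 9.76) was intronic and 45.8 kb from the gene start. None of the 3 overlapped a CpG island or reached the distal start of Runx3, and none was higher than the median of all LHX6 intervals.

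Runx1 (ENSMUSG00000022952, chromosome 16, 92601712 to 92826311, minus strand) had 1 interval, in an intron between its promoters (92753893 to 92754643). Its height was 24, with 57.2% of intervals lower, and its mean density of 9.41 had 29.9% lower. The summit lay 72.1 kb downstream of the distal start and 56.7 kb upstream of the nearest annotated proximal start. The authors' table assigned no gene to it, so that the interval is found only by its position in the GENCODE annotation. The nearest interval beyond the 100 kb limit was 102 kb upstream of the start, with a height of 15 (92927851 to 92928929).

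Cbfb (ENSMUSG00000031885, chromosome 8, 107694574 to 107741886, plus strand), which encodes the shared partner of the RUNX proteins, had 1 interval at its start (107694374 to 107695394). The summit lay 78 bp upstream of the start, the interval overlapped a CpG island, and all 4 annotated Cbfb transcripts began inside it. Its height of 15 was among the lowest, with 5.50% of LHX6 intervals lower, while its mean density of 9.34 had 28.4% lower. The table also lists this interval for LOC100042408, 6.01 kb away. Cbfb was the only one of the 5 genes with an interval over its outermost start.

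Sp7 (ENSMUSG00000060284, chromosome 15, 102187040 to 102197285, minus strand) had 2 intervals, neither of them inside the gene. The first (102185349 to 102186504) had a height of 17 and a summit 1104 bp beyond the 3′ end of Sp7, 11.3 kb from its start. It overlapped a CpG island, held a run of 58 bp of alternating CA near the summit, and was listed for Sp7 and for Aaas, which encodes a nuclear pore protein. The second (102234904 to 102236649), 38.7 kb upstream of Sp7, had a height of 29, the second highest of the 12, but its summit was 574 bp from the nearest start of Sp1, which encodes a widely expressed relative of SP7. The authors' table lists the second interval for Sp1 alone. No interval lay at the start of Sp7 itself.

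The 12 intervals lay near the middle of this library's heights. Their median height was 22 (range 14 to 53), equal to the median of 22 over all LHX6 intervals, and 5 of the 12 were higher than that, against 47.7% of all. Their median mean density was 9.40, against 10.3 over all, and 3 of the 12 lay above the overall median. By either measure the Runx2 interval 196 kb into the gene was the highest and that near Sp1 the next. Of the 12, 5 overlapped a CpG island, against 41.6% of all LHX6 intervals, and 5 lay within 1 kb of a GENCODE start of a protein-coding transcript, against 38.9%.

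**Figure D2:**
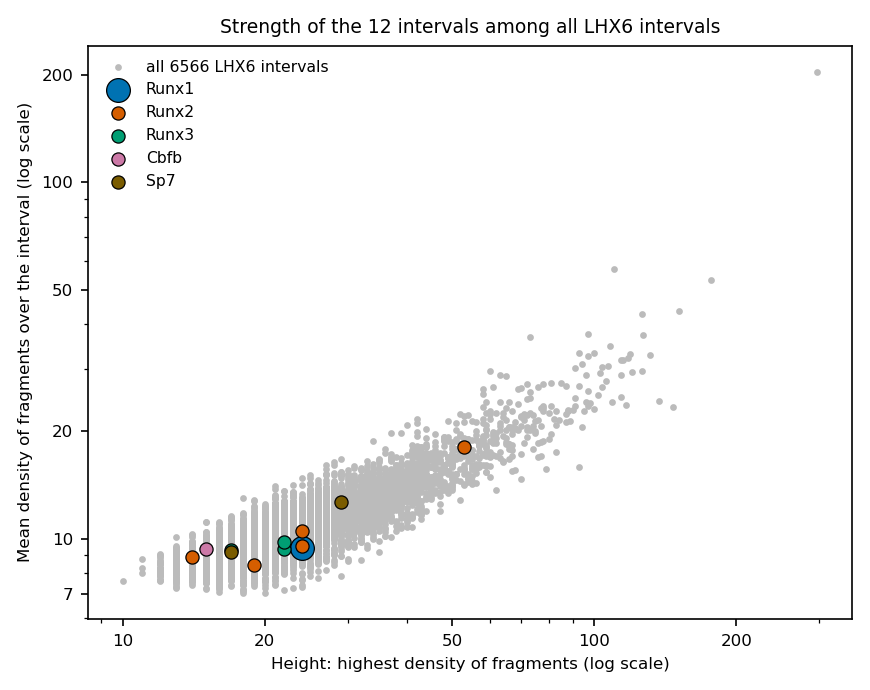
Mean density of fragments over an interval against its height, both on log scales, for all 6566 LHX6 intervals (grey) and the 12 intervals of the Runx genes, Cbfb and Sp7 (coloured; the Runx1 point is drawn larger because it lies under a Runx2 point). All but the Runx2 interval of height 53 and the one near Sp1 of height 29 lie at heights of 14 to 24.

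Runx2 and Runx3 had more intervals than most genes. Runx2, with 5, was among the 2.21% of protein-coding genes that had 5 or more by list or position, and Runx3 among the 10.3% that had 3 or more. The 5 include the interval 85 bp from the Supt3h start. With intervals at gene starts left out Runx2 had 2 and Runx3 had 3. With intervals at or above the median height alone Runx2 had 3 and Runx3 had 2. The shares of 2.21% and 10.3% count all intervals and do not apply to these restricted counts, for which no share over all genes was formed. Longer genes can hold more intervals. Runx2 (319 kb), with 5 inside the gene, was among 3.36% of the 953 protein-coding genes of 200 kb or longer, and Runx1 (225 kb), with 1 inside, was among 45.3% of them. Runx3 (57.3 kb) was 1 of 18 genes, or 0.742% of the 2427 protein-coding genes of 50 kb to 100 kb, with 3 or more inside. The length classes were set with the counts of the members known, so these shares describe the genes and test nothing.

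**Figure D3:**
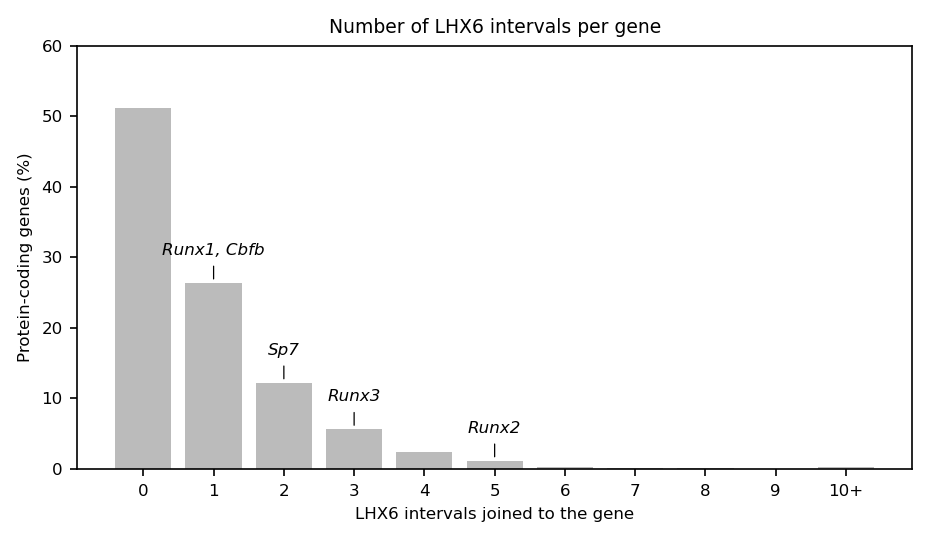
Share of protein-coding genes (vertical axis, percent) by the number of LHX6 intervals joined to them by the authors' list or by position within 100 kb of the start. Runx1 and Cbfb stand at 1 interval, Sp7 at 2, Runx3 at 3 and Runx2 at 5.

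TGATTG was found within 100 bp of 0 of the 12 summits, which allows a share of up to 25% (3 counts of 12, counting error only), against 32.3% of all LHX6 intervals. Among intervals more than 1 kb from a protein-coding start it was found at 0 of 7, which allows a share of up to 42.9% (3 counts of 7), against 38.6%, a difference not detectable with 7 intervals. TGATTA was present at 4 of the 12 (33.3%, exact Clopper-Pearson 95% interval 9.92 to 65.1), against 23.0% of all LHX6 intervals, and TAATTA at 1 of the 12, against 8.74%. At least 1 of these hexamers was at 5 of the 12 summits (41.7%, 15.2 to 72.3), against 50.1% of all. Windows 2 kb to either side held 1 of the 3 in 4 of 24 cases at these genes and in 20.2% over all LHX6 intervals.

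All 3 Runx3 summits, which lay more than 1 kb from a protein-coding start, held a homeodomain-type hexamer, as capitalised in the sequences above; 64.7% of all LHX6 summits at that distance held one. The first had TGATTA starting 95 bp before the summit on the minus strand (134710433 to 134710438), the second TAATTA starting 10 bp before it (134712502 to 134712507), and the third TGATTA 26 bp after it on the minus strand (134722394 to 134722399). The Runx1 summit also held TGATTA 26 bp after it on the minus strand (92754266 to 92754271). Of the 5 Runx2 summits only that before the proximal promoter had one, a TGATTA at 44874263 to 44874268.

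The highest Runx2 interval held none of the 6 motifs searched within 100 bp of its summit. Over its whole length it had 2 homeodomain-type hexamers, a TGATTA starting 167 bp before the summit and a TAATTA 418 bp after it. Longer intervals can hold more matches, and the 12 had a median length of 1077 bp, against 857 bp over all LHX6 intervals. Over the whole length of the intervals, 9 of the 12 held a homeodomain-type hexamer, against 72.8% of all LHX6 intervals. TGATTG was held by 2 of the 12, against 51.6%. The interval over the Runx2 proximal start, that of Cbfb and that at the 3′ end of Sp7 held no homeodomain-type hexamer over their length. Their summit windows were 67.2%, 71.6% and 63.7% G and C, against a median of 51.7% over all LHX6 summits. The window at the Supt3h start was 72.1% G and C, and those near Sp1 and at the third Runx3 interval were 63.2% each. Over their whole length these intervals held 2, 5 and 1 hexamers. Only that of Runx3 lay within 100 bp of the summit. The 2 at the Supt3h start overlapped each other, starting 834 and 838 bp after the summit. The part of base composition and of interval length in these counts was not tested.

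TGTGGT, the RUNX core, lay within 100 bp of 2 of the 12 summits (16.7%, 2.09 to 48.4), against 14.8% of all LHX6 intervals and 14.8% of the windows 2 kb from them. One was before the Runx2 proximal promoter, at 44874275 to 44874280, 12 bp after the start of the TGATTA there. The other was at the 3′ end of Sp7, on the minus strand, where the match overlapped the run of CA. The E-boxes CATCTG and CAGCTG, which basic helix-loop-helix factors bind, were at 2 of the 12 summits, against 33.9% of all. These were the first Runx3 interval, with 2 CATCTG, and the Runx2 interval of height 14, with a CAGCTG. No 2 matches within 100 bp of these summits overlapped.

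**Figure D4:**
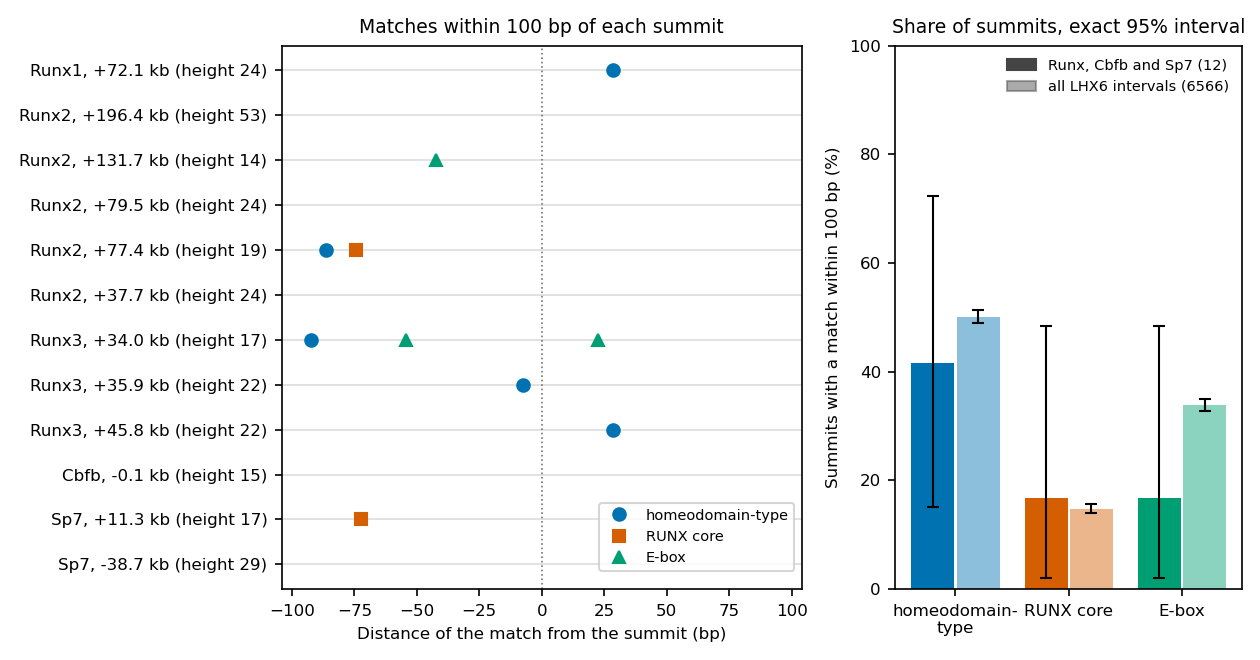
Left, the middle of each motif match relative to the summit in bp for the 12 intervals, labelled by gene, distance from the gene start and height; right, percent of summits with a match within 100 bp at these genes and at all LHX6 intervals, with exact 95% intervals. Homeodomain-type hexamers are present at 5 of the 12 and at all 3 Runx3 summits, and the highest Runx2 summit has no match.

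Supt3h, whose first part lies inside Runx2, had 7 further intervals that the 100 kb limit left out. They lay 126 kb to 306 kb upstream of the Runx2 start, with heights of 20, 35, 17, 87, 21, 55 and 16 in order of distance. The interval of height 87 (45141203 to 45142165) ranked 49 of all LHX6 intervals and exceeded every interval joined to the 5 genes, and that of height 55 (45209916 to 45210828) ranked 220. TGATTG lay within 100 bp of the summit in 0 of the 5 Runx2 intervals, against 5 of these 7. Over all LHX6 intervals the share was 32.3%, with 22.4% at gene starts and 38.6% away from them. Only 2 of the 5 Runx2 intervals lay away from gene starts, and the contrast was not tested. At the highest Supt3h interval TGATTG started 28 bp after the summit, with a TGATTA on the other strand 5 bp after it, as shown in the sequences above. The nearest intervals beyond the limit had heights of 21 at Cbfb (119 kb from the start), 19 at Runx3 (152 kb) and 43 at Sp7 (118 kb).

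Genes whose products work with RUNX proteins had LHX6 intervals in 13 of 18 cases by the authors' list (72.2%, exact interval 46.5 to 90.3), against 20.7% of protein-coding genes, as all 18 are. Crebbp and Hdac3, for a coactivator and a corepressor enzyme, were counted through an interval at another gene's start, 136 kb away at Trap1 and 19.5 kb away at Diap1. The highest were in Runx1t1, a corepressor gene fused to Runx1 in human leukaemia (4 intervals with heights from 24 to 60, the highest at chromosome 4, 13770626 to 13772214), and in Cbfa2t3, a related corepressor gene (height 44). Tle3 and Tle1, which encode Groucho-type corepressors that bind RUNX proteins, had intervals of height 44 and 40 upstream of their starts, and all 4 Tle genes of the list had at least 1. The highest of the 3 Tle2 intervals (height 38) was also at another gene's start, that of Tle6, 25.6 kb from the Tle2 start. The 5 genes of the list without an interval were Cbfa2t2, Hdac4, Kat6a, Smad1 and Smad5. With intervals at gene starts left out the count was 6 of 18, against 6.92% of protein-coding genes. The median of the highest interval per gene was 25, against 23 over all genes with an interval. The list was chosen with earlier results of these data known, so its shares describe these genes and test nothing.

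Osteoblast genes had an interval in 5 of 15 cases (33.3%, 11.8 to 61.6), cartilage genes in 4 of 10 (40%, 12.2 to 73.8) and blood cell genes in 0 of 16, which allows a share of up to 18.8% (3 counts of 16). All these genes are protein-coding, and the share over all protein-coding genes was 20.7%, inside the intervals of the osteoblast and cartilage lists. For the blood cell list the exact upper limit, the measure used for the other lists, was 20.6%, close to that share. In the osteoblast list the highest were at the start of Atf4, a factor for amino acid supply in bone (height 29) and 7.25 kb upstream of the collagen gene Col1a1 (height 29). Phex and Sparc, also in that list, had 1 of height 17 each. With intervals at or above the median height alone the count was 2 of 15 for the osteoblast list and 3 of 10 for the cartilage list. The share of protein-coding genes was then 11.4%. With intervals at gene starts left out the counts were 4 of 15 and 3 of 10, against 6.92% of protein-coding genes. The blood cell list stayed at 0 of 16 in both cases. In the cartilage list they were at the start of Sox9, the master factor of cartilage (height 52), in Sox5 (height 30), in Sox6 (height 29) and in the collagen gene Col2a1 (height 17). The other 10 genes of the osteoblast list, among them Spp1, Ibsp and Bglap, which encode proteins of bone matrix, had none, as did most protein-coding genes. The other 6 genes of the cartilage list, Acan, Comp, Matn1, Hapln1, Ihh and Col10a1, also had none. All these shares count genes in 1 library, and none was tested.

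No interval of the 12 overlapped an input interval. The input library had 6 intervals in all, against 6566 for LHX6. Of the 6, 0 lay on chromosomes 4, 8, 15 and 16, and 1 lay on chromosome 17, at 4.97 Mb from the Runx2 start. So few input intervals leave almost no room for overlap anywhere, so the lack of overlap is no check of these 12. The deposited list gives input density only for those 6, so an LHX6 to input ratio could not be formed at the Runx genes, Cbfb or Sp7.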

How the data were processed

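The deposited table lists intervals of 1 LHX6 ChIP and 1 input library; each library is its own group. Per the labels' protocols, the authors aligned reads to mm9 with BWA and extended them to 150 bp fragments; per the submitters' processing notes MACS was among the tools, and its settings are not given in the sources used. The height and mean density are the authors' deposited fragment density signal; scaling between libraries is not stated. One gene counted in the osteoblast list is not reported here by name. Mean density times bins was whole within 0.02 for 99.98% of LHX6 intervals.

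Intervals were joined to GENCODE M1 genes (NCBIM37) of chromosomes 1 to 19 and X by the authors' list or by summit; 4742 of 5266 symbols (90%) matched directly or through RefSeq synonyms. A gene start is the outermost 5′ end, except that gene-start intervals have the summit within 1 kb of a protein-coding transcript start. Motifs were searched on both strands with pysam 0.24.0 in Python 3.11.15, within 100 bp of summits; 97.5% of summits lie at multiples of 16 bp, which limits their precision. Joining and search were tested on simulated data. Members and the 4 gene lists were chosen with earlier results of these data known. Named genes were all members, genes sharing or nearest to their intervals, and up to 4 genes with the highest intervals per list; other list genes, those of nearby intervals and Gm10497 were named after their values were seen. Windows, joining rules, height limits, overlap and motif forms were varied. Intervals of shares cover counting error only.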

Additional observations from a re-analysis of the deposited data

How the results depend on the processing

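No paired analysis was possible because each group had 1 library, and no replicate could be left out. The 12 intervals became 23 with a limit of 200 kb from the gene start, 7 when limited to heights at or above the median of all LHX6 intervals, and 7 with intervals at gene starts left out; limits of 50 kb, the authors' list and summit position alone gave 10 to 12. The median height of 22 stayed within 20.5 to 22 under the other joining rules, and measured as mean density, which has another scale, it was 9.40. TGTGGT was at 0% of the summits within 50 bp, against 8.22% of all LHX6 intervals. Written as TGNGGT, it was at 50% of the summits within 100 bp, against 34.8% of all LHX6 intervals. A homeodomain-type hexamer was at 25% of the summits within 50 bp, against 39.2% of all LHX6 intervals, at 25% within 100 bp of the interval's middle, against 43.2%, and in 75% over whole intervals, an alternative chosen after the data were seen. The background of genes with an interval was 14% of all gene names, and 7.75% of them with the higher intervals alone. For protein-coding genes it was 20.7%, and 11.4% with the higher intervals alone. Genes that work with RUNX proteins and had an interval numbered 6 with gene starts left out, and osteoblast genes 2 with the higher intervals alone; the cause was not tested in either case. The unknown depth limits every value.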

Other observations

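A further interval upstream of Runx1, 234 kb from its start (chromosome 16, 93060296 to 93060812), had a height of 46, rank 362 of the LHX6 intervals, and the authors' table assigned no gene to it. It held 2 TGATTG sites within 100 bp of the summit, starting 1 bp and 38 bp after it on opposite strands. Near Sp7, an interval of height 43 with no CpG island lay 118 kb from its start and was listed for Rarg, which encodes a retinoic acid receptor (chromosome 15, 102078699 to 102080389).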
